A study of Mus musculus with 5 samples.

Results

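The TNF superfamily is the set of cytokine ligands related to tumour necrosis factor and their receptors. Members were taken by gene symbol, as every counted gene whose name starts with Tnfsf or Tnfrsf together with Tnf, Lta, Ltb, Ltbr, Fas, Fasl, Cd27, Cd70, Cd40, Cd40lg and Ngfr. This gave 43 of the 23183 genes counted, 18 ligands and 25 receptors. They were followed in whole lung of female wild-type BALB/c mice in 5 groups with 1 RNA sequencing library each. The PM10/OVA/CPX mice were given PM10, the inhalable fraction of airborne particulate matter, and ovalbumin (OVA), a protein allergen, and were treated with a chitinase-1 inhibitor (CPX). The PM10/OVA/Dex mice had both exposures and dexamethasone (Dex), a synthetic glucocorticoid. The other groups were PM10/OVA mice with both exposures and no drug, PM10 mice with the particles alone, and untreated controls. Particles were given intranasally on 4 occasions within 2 weeks, and OVA first by injection and then intranasally. CPX was injected 6 times in the course of 3 weeks and dexamethasone 3 times during the final week. Tissue was collected 2 days following the final challenge. Doses, the ages of the mice, and whether a library holds 1 lung or a pool are not stated in the labels used here.

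Ligands of this family are mostly made as trimers on the cell surface, and many are cut off to act as soluble cytokines. Their receptors work through TRAF adaptor proteins, which lead to the NF-kB transcription factors and to survival and activation, and a subset carries a death domain that can start apoptosis through caspase-8. In the lung the family is known for macrophage-derived TNF in inflammation, for costimulation of T cells during allergic responses, and for B cell and plasma cell survival through BAFF and APRIL.

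Library totals ran from 11993222 to 16929068 counts. Levels are counts scaled to library size (CPM, with trimmed mean of M-values factors), and a single count was worth 0.0577 to 0.0841 CPM. With 1 library per group there is no replicate check and no p-value. Ratios are therefore between libraries, and the 95% intervals beside them cover counting error only. All lung markers looked for (Sftpc, Sftpb, Scgb1a1, Ager, Foxj1 and Cldn5) were detected in every library, at a sum of 31768 to 43759 CPM. The control library stood apart in genes of tissues that border the lung: summed heart-muscle markers were at 265 CPM in PM10/OVA/CPX, 676 in PM10/OVA/Dex, 304 in PM10/OVA, 709 in PM10 and 3351 in control, and fat and cartilage markers were also highest in control. All 10 heart-muscle markers were at least 2-fold lower in PM10 and in PM10/OVA than in control. These tissues also differed in comparisons without control. Dex was at least 2-fold higher than PM10/OVA in 5 of 10 heart-muscle, 5 of 7 fat and 4 of 4 cartilage markers. PM10/OVA was at least 2-fold lower than PM10 in 7 of 10 heart-muscle, 2 of 4 cartilage and 0 of 7 fat markers. Between CPX and PM10/OVA none of these markers was past 2-fold. The part of these tissues in any of the ratios was not tested.

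The most abundant members were a few receptors and ligands. Per kilobase of exon, a scale on which genes can be compared, Tnfrsf1a (TNFR1, the broadly expressed TNF receptor with a death domain) averaged 56.0 CPM per kb over the 5 libraries. Next came Ltbr (the lymphotoxin-beta receptor) at 31.6 CPM per kb, Tnfrsf1b (TNFR2, the TNF receptor of immune cells) at 27.5, Fas at 14.6 and Tnfrsf21 (death receptor 6) at 12.4. Tnfrsf1a did not overlap any other receptor in this measure, with 48.4 CPM per kb in its lowest library, whereas Tnfrsf1b ran from 15.6 to 40.2 and overlapped both Ltbr and Fas. Among ligands, Tnfsf12 (TWEAK) at 35.5, Tnfsf10 (TRAIL) at 34.4 and Ltb (lymphotoxin-beta) at 32.3 CPM per kb overlapped between libraries and have no firm order. Tnfsf13 (APRIL) at 17.1 and Tnfsfm13, the read-through transcript that joins Tnfsf12 to Tnfsf13, at 10.9 CPM per kb came next.

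**Figure D1:**
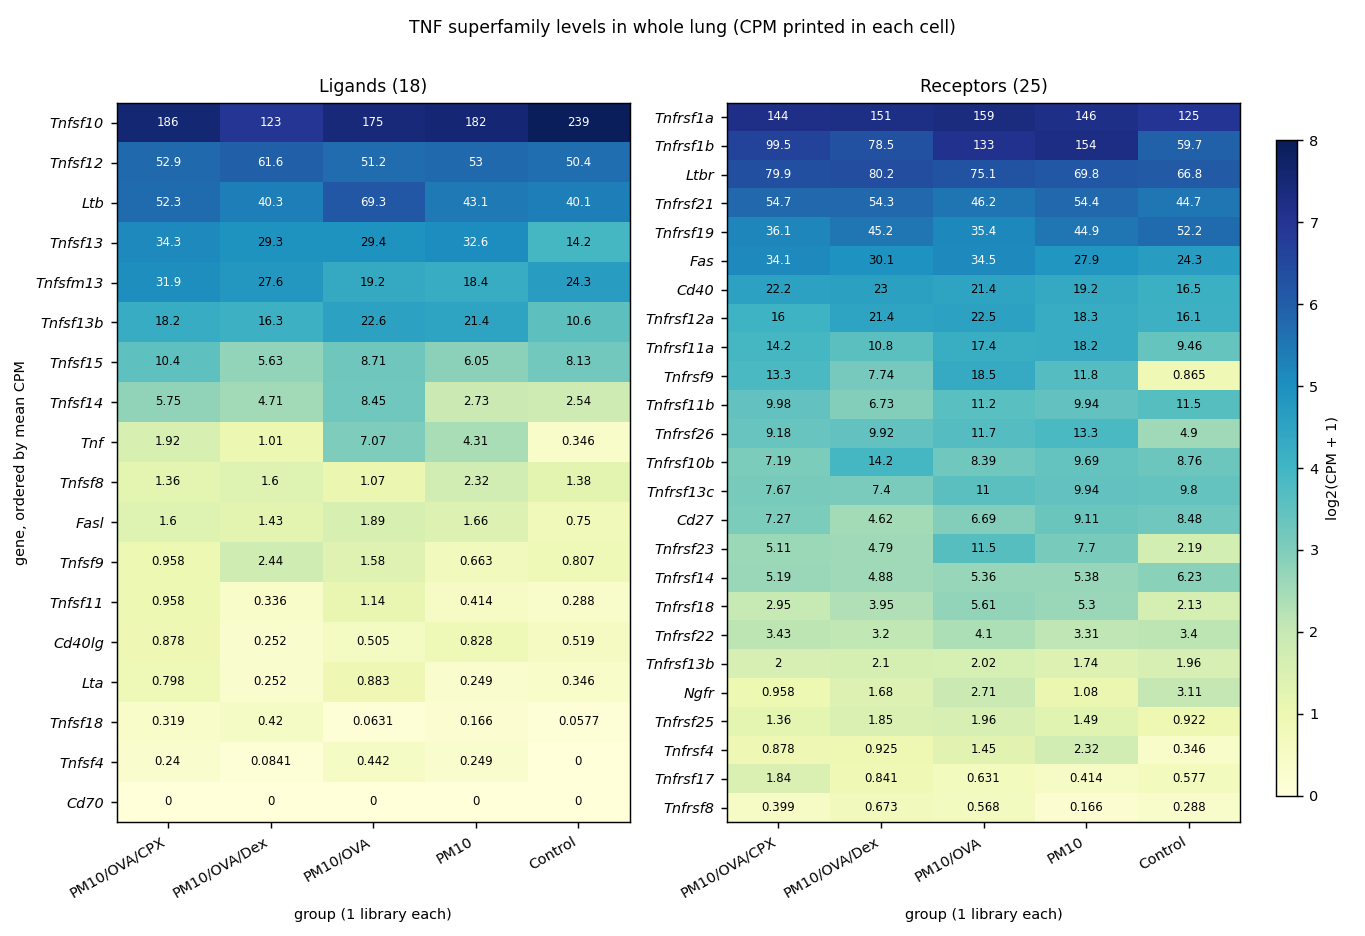
Level of each of the 43 members in each of the 5 libraries, with the CPM printed in each cell and shaded as log2(CPM + 1), ligands left and receptors right, ordered by mean CPM. Tnfsf10 and Tnfrsf1a lead the 2 panels, while Tnfrsf9 and Tnf are pale in the control column at 0.865 and 0.346 CPM.

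Of the 43 members, 35 averaged at least 1 CPM and are called measured here, 12 ligands and 23 receptors, among 14305 measured genes in all. The other 8 were 6 ligands and 2 receptors. Cd70, the ligand of Cd27, had 0 counts in every library, where 3 counts, the limit set for a count of 0, is worth 0.173 to 0.252 CPM. Cd40lg (CD40 ligand of helper T cells), Lta (lymphotoxin-alpha), Tnfsf4 (OX40 ligand), Tnfsf11 (RANKL) and Tnfsf18 (GITR ligand) stayed at or below 1.14 CPM. The receptors Tnfrsf8 (CD30) and Tnfrsf17 (BCMA, the receptor of plasma cells) stayed at or below 0.673 and 1.84 CPM. Several ligands of the T cell receptors described below were thus near the detection limit in whole lung.

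A member was counted as higher or lower when log2(CPM + 1) differed by at least 2-fold, and 10 of the 35 did so in at least 1 of 5 comparisons. No share of all genes was computed for that pooled count, so only the counts by comparison have one beside them. Against control, PM10 alone had 8 of 35 members higher, or 22.9%, where 3.7% of all measured genes were, and none lower, against 2.04% of all genes. PM10/OVA against control had 9 higher, or 25.7%, where 3.17% of all genes were, and none lower, against 2.73%. These 2 comparisons share the control library. Between PM10/OVA and PM10 only Tnfsf14 was higher, 2.86% of members where 0.692% of all genes were, and no member was lower (1.27%). Under the drugs no member was higher: PM10/OVA/CPX against PM10/OVA had 2 of 35 lower, or 5.71%, where 0.762% of all genes were lower and 0.636% higher. PM10/OVA/Dex against PM10/OVA had 3 lower, or 8.57%, where 1.6% of all genes were lower and 1.2% higher. These counts depend on the pseudocount. At 5 CPM, 2 members were higher in PM10 than in control, where 2.13% of all genes were, and 4 in PM10/OVA than in control, where 1.82% were. At the same setting none was higher in PM10/OVA than in PM10 (0.377% of all genes), none was lower under CPX (0.405%) and 1 was lower under Dex (0.706%).

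**Figure D2:**
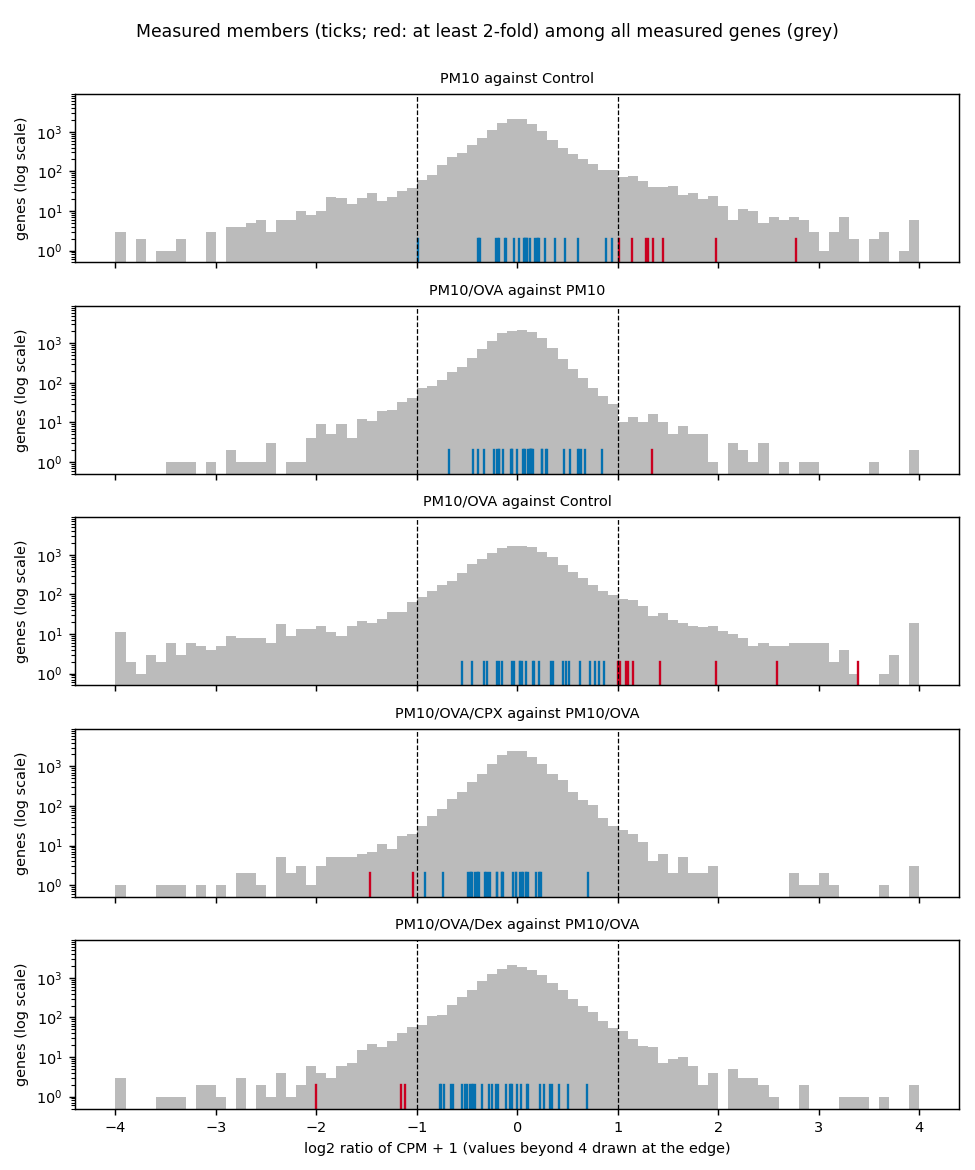
Log2 ratio of CPM + 1 for all 14305 measured genes (grey, gene count on a log axis) and for the 35 measured members (ticks; red where at least 2-fold) in each comparison, with dashed lines at 2-fold. Ticks past 2-fold lie to the right in the exposure comparisons, 8, 1 and 9 of them, and to the left under CPX and Dex, 2 and 3 of them.

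Across the family as a whole, differences were smaller than for these few genes, which were picked by the size of their ratios. The median log2 ratio over measured members was 0.17 for PM10 against control, 0.12 for PM10/OVA against PM10 and 0.36 for PM10/OVA against control, with all-gene medians between -0.00 and 0.01. Under treatment the medians were -0.20 for CPX and -0.25 for Dex against PM10/OVA, where the all-gene medians were -0.00 and -0.01. A ratio above 0 was found for 26 of 35 members between PM10/OVA and control, while 24 of 35 were below 0 under CPX and 25 of 35 under Dex. Under CPX the measured ligands were even, with 6 above and 6 below 0, while 18 of 23 receptors were below. Under Dex 8 of 12 ligands and 17 of 23 receptors were below 0. Summed over all 43 members, receptor transcripts were at 579 CPM in PM10/OVA/CPX, 570 in PM10/OVA/Dex, 648 in PM10/OVA, 645 in PM10 and 481 in control. Ligand transcripts in the same order were at 401, 317, 398, 370 and 394 CPM. Control therefore had the lowest receptor sum and the Dex library the lowest ligand sum. These sums lean on single genes. Tnfsf10 alone was at 239 CPM in control and 123 in PM10/OVA/Dex, and without it control would have the lowest ligand sum as well. Among receptors, Tnfrsf1b alone was at 154 CPM in PM10 and 59.7 in control.

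The promoters of Tnf and Tnfrsf9 (4-1BB), the members with the widest ranges, and of Tnfrsf1b and Tnfsf13b (BAFF), which hold a match to an interferon-type motif, are shown as examples from the 10 members past 2-fold. All 10 were lowest in control. Each was picked for being at least 2-fold higher than control in PM10 or PM10/OVA, so that this follows largely from the choice. They are RefSeq windows on GRCm38.p6 from 250 bases before to 50 after a gene's start. Capitals mark matches on either strand to an NF-kB motif, to the interferon-stimulated response element (ISRE), to TTCNNNGAA (GAS, the STAT type) or to ACANNNTGT (glucocorticoid receptor type).
Tnf, chr17:35201958-35202257, minus strand: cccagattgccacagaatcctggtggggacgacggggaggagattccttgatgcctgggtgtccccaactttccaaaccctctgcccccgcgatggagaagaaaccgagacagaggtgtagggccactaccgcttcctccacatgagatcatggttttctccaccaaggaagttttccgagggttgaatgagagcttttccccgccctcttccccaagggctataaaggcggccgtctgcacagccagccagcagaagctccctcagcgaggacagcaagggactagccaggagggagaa
Tnfrsf9, the second of its 2 listed starts, chr4:150927749-150928048, plus strand: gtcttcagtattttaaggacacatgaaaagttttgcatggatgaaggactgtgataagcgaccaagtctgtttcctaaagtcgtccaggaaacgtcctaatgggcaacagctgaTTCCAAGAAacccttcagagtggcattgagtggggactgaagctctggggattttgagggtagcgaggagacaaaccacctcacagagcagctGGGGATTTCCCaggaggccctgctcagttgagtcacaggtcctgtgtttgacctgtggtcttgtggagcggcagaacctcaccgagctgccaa
Tnfrsf1b, chr4:145246821-145247120, minus strand: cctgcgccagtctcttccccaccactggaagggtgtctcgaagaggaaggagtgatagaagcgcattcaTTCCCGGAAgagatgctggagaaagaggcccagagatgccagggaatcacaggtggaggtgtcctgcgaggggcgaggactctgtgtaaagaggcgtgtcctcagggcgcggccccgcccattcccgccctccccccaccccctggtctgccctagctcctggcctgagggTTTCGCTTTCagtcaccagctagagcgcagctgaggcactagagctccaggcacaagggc
Tnfsf13b, the second of its 2 listed starts, chr8:10006383-10006682, plus strand: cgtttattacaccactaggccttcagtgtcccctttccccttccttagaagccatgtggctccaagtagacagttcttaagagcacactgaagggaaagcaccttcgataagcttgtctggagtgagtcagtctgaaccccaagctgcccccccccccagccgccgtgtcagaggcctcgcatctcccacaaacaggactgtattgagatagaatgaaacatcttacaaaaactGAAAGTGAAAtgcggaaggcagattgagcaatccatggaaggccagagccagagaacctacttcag
The Tnfrsf9 window holds a GAS match beginning 136 bases before the start and 2 NF-kB matches that overlap each other, beginning 43 and 42 bases before it. Tnfrsf1b holds a GAS match at -181 and an ISRE match at -10, and Tnfsf13b an ISRE match at -16. The other members with an ISRE match did not differ from control beyond counting error in PM10 or PM10/OVA. Tnfrsf14 was at 0.865 times control in PM10 (0.626 to 1.19) and 0.861 times in PM10/OVA (0.640 to 1.15). Tnfrsf17, below the filter, was at 0.718 times control in PM10 (0.193 to 2.31), on 5 and 10 counts, and 1.09 times in PM10/OVA (0.409 to 2.93). The windows at the first listed starts of Tnfrsf9 and Tnfsf13b, which are not printed, hold 0 matches. Of the other members past 2-fold, Tnfrsf4, Tnfrsf23, Tnfsf13 and Tnfsf14 have windows with 0 matches. Tnfrsf18 has a GAS match at -99, and Tnfrsf26 has no window. The Tnf window holds none of these letters, which says nothing about sites outside it. Of 37 promoter windows for 33 matched members, the NF-kB motif was in 4, or 10.8%, against 4.79% of all 32851 windows. GAS letters were in 9, or 24.3%, against 8.30%, the ISRE in 4, or 10.8%, against 3.44%, and the glucocorticoid receptor letters in none, against 6.85%. These are letter matches and not tested sites.

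TNF itself had, with Tnfrsf9, the widest range. Tnf (GRCm38 chromosome 17, 35199381 to 35202007, minus strand, protein-coding) encodes the inflammatory cytokine that gives the family its name, made chiefly by macrophages. It was at 1.92 CPM in PM10/OVA/CPX, 1.01 in PM10/OVA/Dex, 7.07 in PM10/OVA, 4.31 in PM10 and 0.346 in control, from 24, 12, 112, 52 and 6 counts. The 2 libraries with exposure and no drug were highest, the treated libraries lay between them and control, and control was lowest. Tnf was 12.5-fold higher in PM10 than in control (95% counting interval 5.35 to 35.5) and 20.4-fold higher in PM10/OVA than in control (9.09 to 56.8). PM10/OVA exceeded PM10 by 1.64-fold (1.17 to 2.33), short of the 2-fold line. Tnf was 3.69-fold lower under CPX (2.36 to 5.99) and 7.0-fold lower under Dex (3.85 to 14.0) than in PM10/OVA. In whole lung, more cells of a type and more RNA per cell cannot be told apart, here or below.

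The 2 TNF receptors differed in range. Tnfrsf1b (chromosome 4, 145213463 to 145246870, minus strand) was at 99.5 CPM in PM10/OVA/CPX, 78.5 in PM10/OVA/Dex, 133 in PM10/OVA, 154 in PM10 and 59.7 in control. PM10 alone was highest, and Dex was the library nearest to control. The ratio to control was 2.57-fold for PM10 (2.38 to 2.78) and 2.23-fold for PM10/OVA (2.07 to 2.41), and against PM10/OVA it was 1.34-fold lower under CPX (1.25 to 1.44) and 1.70-fold lower under Dex (1.57 to 1.84). Tnfrsf1a was at 159 CPM in PM10/OVA, its highest library, and 125 CPM in control, its lowest, 1.27-fold apart (1.20 to 1.34). Summed markers of macrophages and monocytes, which carry TNFR2, were at 816 CPM in PM10/OVA/CPX, 682 in PM10/OVA/Dex, 913 in PM10/OVA, 1008 in PM10 and 389 in control, the same order of libraries as Tnfrsf1b. At least 2-fold higher than control were 9 of these 10 markers in PM10 and 8 in PM10/OVA, and none was at 0 in any library. Their part in the TNF and TNFR2 values was not tested.

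LIGHT was the only member at least 2-fold higher in PM10/OVA than in PM10 on log2(CPM + 1). On a ratio of CPM, the low genes Ngfr (2.52-fold, 1.33 to 5.11) and Tnfsf9 (2.38-fold, 1.04 to 6.10) were also past 2-fold. Tnfsf14 (LIGHT; chromosome 17, 57189492 to 57194177, minus strand) signals through Ltbr and Tnfrsf14 (HVEM) and is made by activated leukocytes. It was at 5.75 CPM in PM10/OVA/CPX, 4.71 in PM10/OVA/Dex, 8.45 in PM10/OVA, 2.73 in PM10 and 2.54 in control. PM10 did not differ from control beyond counting error (1.08-fold, 0.665 to 1.73), and the 3 OVA libraries were all higher than both. PM10/OVA exceeded PM10 by 3.09-fold (2.10 to 4.67), and Tnfsf14 was 1.47-fold lower under CPX (1.10 to 1.99) and 1.80-fold lower under Dex (1.30 to 2.50) than in PM10/OVA. Summed neutrophil markers followed a like order, at 559 CPM in PM10/OVA/CPX, 309 in PM10/OVA/Dex, 646 in PM10/OVA, 215 in PM10 and 184 in control, with 6 of 6 at least 2-fold higher in PM10/OVA than in PM10 and none at 0, and their part in the LIGHT values was not tested. Ltb, the membrane ligand that organises lymphoid tissue, was at 52.3 CPM with CPX, 40.3 with Dex, 69.3 in PM10/OVA, 43.1 in PM10 and 40.1 in control. PM10/OVA was again highest, 1.73-fold over control (1.57 to 1.90), and Dex was level with control. The receptors of these ligands differed little: Ltbr ran from 66.8 to 80.2 CPM and Tnfrsf14 from 4.88 to 6.23 CPM.

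**Figure D3:**
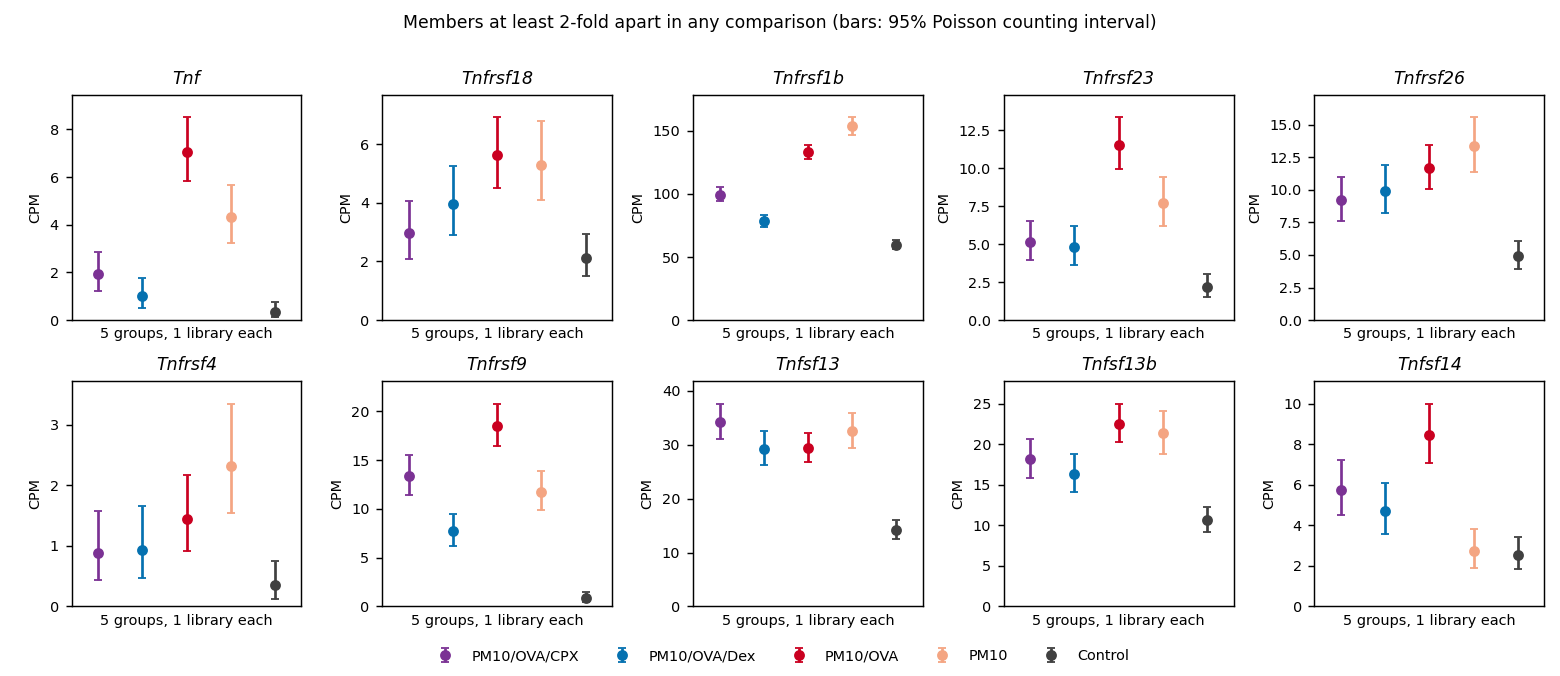
CPM of the 10 members at least 2-fold apart in any comparison, 1 point per library with its 95% Poisson counting interval, on linear axes from 0. Control is the lowest point for all 10, each of which was picked for being at least 2-fold higher than control in PM10 or PM10/OVA. PM10/OVA is the highest for Tnf, Tnfrsf9, Tnfrsf23, Tnfrsf18, Tnfsf13b and Tnfsf14.

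Among T cell costimulatory receptors, Tnfrsf9 ranged as widely as Tnf. Tnfrsf9 (4-1BB, or CD137; chromosome 4, 150914562 to 150946102, plus strand) is induced on activated T cells and natural killer cells and is also found on regulatory T cells and myeloid cells. It was at 13.3 CPM in PM10/OVA/CPX, 7.74 in PM10/OVA/Dex, 18.5 in PM10/OVA, 11.8 in PM10 and 0.865 in control, from 167, 92, 294, 142 and 15 counts. Every exposed library was far above control, with or without a drug. PM10 exceeded control 13.6-fold (7.97 to 24.9), PM10/OVA exceeded control 21.4-fold (12.8 to 38.8) and PM10/OVA exceeded PM10 1.58-fold (1.29 to 1.94). Under Dex it was 2.40-fold lower than PM10/OVA (1.89 to 3.06), while under CPX it was 1.39-fold lower (1.15 to 1.69) and did not reach the 2-fold line. Its ligand gene Tnfsf9 was low, with 0.958 CPM in PM10/OVA/CPX, 2.44 in PM10/OVA/Dex, 1.58 in PM10/OVA, 0.663 in PM10 and 0.807 in control, and was highest in the Dex library. A neighbouring gene, Gm11110, overlaps 192 exonic bases of Tnfsf9, so this value is uncertain.

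The neighbouring genes Tnfrsf4 and Tnfrsf18 (chromosome 4, starting at 156013843 and 156026164, both on the plus strand) encode OX40 and GITR, which are carried by activated and regulatory T cells. Tnfrsf4 was at 0.878 CPM in PM10/OVA/CPX, 0.925 in PM10/OVA/Dex, 1.45 in PM10/OVA, 2.32 in PM10 and 0.346 in control, on 28 counts in PM10 and 6 in control. Tnfrsf4 was 6.70-fold higher in PM10 than in control, with a wide interval of 2.72 to 19.8. Its mean was 1.18 CPM, just past the filter, with only PM10 and PM10/OVA above 1 CPM. Its place among measured members thus leans on the library in which it was called higher. Tnfrsf18 was at 2.95 CPM in PM10/OVA/CPX, 3.95 in PM10/OVA/Dex, 5.61 in PM10/OVA, 5.30 in PM10 and 2.13 in control, and was 2.49-fold higher in PM10 (1.63 to 3.83) and 2.63-fold higher in PM10/OVA (1.77 to 3.97) than in control. The PM10 value was below the 2-fold line with library totals alone (log2 ratio 0.99). An antisense gene, Gm16008, overlaps 414 of the 1524 exonic bases of Tnfrsf18, and the strand setting of the counting is not known, so its value is uncertain. Summed regulatory T cell markers (Foxp3, Il2ra, Ctla4, Ikzf2 and Icos) were at 27.5 CPM in PM10/OVA/CPX, 24.2 in PM10/OVA/Dex, 32.1 in PM10/OVA, 48.0 in PM10 and 21.0 in control, and general T cell markers at 110, 78.2, 109, 113 and 91.2 CPM in the same order. In PM10, 3 of the 5 regulatory markers and none of the 8 general markers were at least 2-fold higher than in control, and none was at 0. The part of these cells in the receptor values was not tested. Other members of the costimulatory group were closer together: Cd27 ran from 4.62 CPM in PM10/OVA/Dex to 9.11 in PM10, Cd40, the receptor on B cells and antigen-presenting cells, was at 23.0 in PM10/OVA/Dex and 16.5 in control as its extremes, and Tnfrsf25 (DR3) ran from 0.922 to 1.96. Tnfsf15 (TL1A, the ligand of DR3) was 1.55-fold lower under Dex than in PM10/OVA (1.15 to 2.10), and Tnfsf8 (CD30 ligand) was 2.16-fold lower in PM10/OVA than in PM10 on a ratio of CPM (1.14 to 4.21), though not by 2-fold on log2(CPM + 1).

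The genes of the B cell survival factors BAFF and APRIL were higher in every exposed library than in control. Tnfsf13b (BAFF; chromosome 8, 10006467 to 10039072, plus strand), a survival factor for mature B cells made by myeloid and stromal cells, was at 18.2 CPM in PM10/OVA/CPX, 16.3 in PM10/OVA/Dex, 22.6 in PM10/OVA, 21.4 in PM10 and 10.6 in control. PM10/OVA exceeded control by 2.13-fold (1.78 to 2.56), which was below the 2-fold line on log2(CPM + 1) when scaled by library totals alone (log2 ratio 0.97). BAFF was 1.24-fold lower under CPX (1.05 to 1.47) and 1.38-fold lower under Dex (1.16 to 1.66) than in PM10/OVA. Tnfsf13 (APRIL; chromosome 11, 69682846 to 69685784, minus strand), which supports plasma cells, was at 34.3 CPM in PM10/OVA/CPX, 29.3 in PM10/OVA/Dex, 29.4 in PM10/OVA, 32.6 in PM10 and 14.2 in control, about level in the 4 exposed libraries. Its ratio to control was 2.30-fold for PM10 (1.95 to 2.70) and 2.07-fold for PM10/OVA (1.77 to 2.43). The PM10/OVA ratio lay at the 2-fold line on log2(CPM + 1) and was below it with DESeq2 size factors or library totals alone.

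The APRIL value depends on how reads were assigned. Tnfsf13 shares 983 of its 1637 exonic bases with the read-through Tnfsfm13, which was at 31.9 CPM in PM10/OVA/CPX, 27.6 in PM10/OVA/Dex, 19.2 in PM10/OVA, 18.4 in PM10 and 24.3 in control, lowest in the libraries with exposure and no drug. With the counts of both summed, the locus was 1.32-fold higher in PM10 (1.18 to 1.48) and 1.26-fold higher in PM10/OVA (1.14 to 1.40) than in control, which is below the 2-fold line. The summed locus was 1.36-fold higher under CPX than in PM10/OVA (1.23 to 1.51). An antisense gene, Tnfsf13os, overlaps 221 exonic bases of Tnfsf13 and 253 of Tnfsfm13. With the strand setting of the counting not known, summing does not remove that uncertainty.

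Tnfrsf13c (BAFF receptor of B cells) was at 7.67 CPM in PM10/OVA/CPX, 7.40 in PM10/OVA/Dex, 11.0 in PM10/OVA, 9.94 in PM10 and 9.80 in control, lowest in the treated libraries. Summed B cell markers were at 144 CPM in PM10/OVA/CPX, 80.8 in PM10/OVA/Dex, 214 in PM10/OVA, 132 in PM10 and 179 in control, with 6 of 7 at least 2-fold lower under Dex than in PM10/OVA and none at 0. Their part in the receptor values was not tested. Tnfrsf13b (TACI) stayed between 1.74 and 2.10 CPM. Tnfrsf17 (BCMA), below the filter on mean CPM, had 23 counts in PM10/OVA/CPX, 10 in PM10/OVA/Dex, 10 in PM10/OVA, 5 in PM10 and 10 in control. The CPX library was highest, at 2.91-fold over PM10/OVA (1.33 to 6.85). Jchain, the antibody joining chain of plasma cells, was 12.7-fold higher in PM10/OVA/CPX than in PM10/OVA (11.9 to 13.4), and Mzb1, another plasma cell gene, was 4.19-fold higher (3.53 to 5.0). The other 4 of the 6 plasma cell markers (Sdc1, Xbp1, Pou2af1 and Prdm1) had ratios below 0, so that the list's median log2 ratio was -0.11. Under Dex as well, 2 of the 6 were at least 2-fold higher than in PM10/OVA and 4 were below 0 (median -0.25). The part of plasma cells in the BCMA counts was not tested.

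TRAIL, the most abundant ligand by CPM, was highest in control. Tnfsf10 (chromosome 3, 27317028 to 27342427, plus strand), which can kill cells through death receptors, was at 186 CPM in PM10/OVA/CPX, 123 in PM10/OVA/Dex, 175 in PM10/OVA, 182 in PM10 and 239 in control. PM10 was 1.31-fold lower than control (1.25 to 1.38) and Dex 1.42-fold lower than PM10/OVA (1.33 to 1.51), while CPX differed from PM10/OVA by 1.06-fold (1.01 to 1.12). Tnfrsf10b, the death receptor of TRAIL, was at 7.19 CPM in PM10/OVA/CPX, 14.2 in PM10/OVA/Dex, 8.39 in PM10/OVA, 9.69 in PM10 and 8.76 in control. Dex stood above the rest, 1.69-fold higher than PM10/OVA (1.34 to 2.14), in the library where the ligand was lowest.

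Among the mouse decoy receptors of TRAIL, Tnfrsf23 was highest with both exposures and no drug. Tnfrsf23 (chromosome 7, 143665809 to 143685872, minus strand), a decoy TRAIL receptor that lacks a death domain, was at 5.11 CPM in PM10/OVA/CPX, 4.79 in PM10/OVA/Dex, 11.5 in PM10/OVA, 7.70 in PM10 and 2.19 in control. It was 3.52-fold higher in PM10 (2.39 to 5.27) and 5.27-fold higher in PM10/OVA (3.70 to 7.68) than in control. Against PM10/OVA it was 2.26-fold lower under CPX (1.69 to 3.05) and 2.41-fold lower under Dex (1.78 to 3.30), and both treated libraries stayed above control. The adjacent Tnfrsf26, a related receptor, was at 9.18 CPM in PM10/OVA/CPX, 9.92 in PM10/OVA/Dex, 11.7 in PM10/OVA, 13.3 in PM10 and 4.90 in control, 2.72-fold higher in PM10 (2.08 to 3.58) and 2.38-fold higher in PM10/OVA (1.83 to 3.12) than in control. The other decoy gene of this cluster, Tnfrsf22, ran only from 3.20 to 4.10 CPM. These paralogs may share reads, and an antisense gene overlaps 164 exonic bases of Tnfrsf23 and 107 of Tnfrsf26. With the counts of the 3 genes summed, the cluster was 2.60-fold higher in PM10/OVA than in control (2.18 to 3.11), but only 1.54-fold lower under CPX (1.31 to 1.82) and 1.52-fold lower under Dex (1.29 to 1.81) than in PM10/OVA.

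Fas and its ligand showed smaller differences. Fas, which triggers apoptosis on binding FasL, was at 34.1 CPM in PM10/OVA/CPX, 30.1 in PM10/OVA/Dex, 34.5 in PM10/OVA, 27.9 in PM10 and 24.3 in control, 1.42-fold higher in PM10/OVA than in control (1.25 to 1.61). Fasl, made by cytotoxic cells, had 20, 17, 30, 20 and 13 counts in the same order. It was 2.52-fold higher in PM10/OVA than in control on a ratio of CPM (1.28 to 5.27), though not by 2-fold on log2(CPM + 1).

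**Figure D4:**
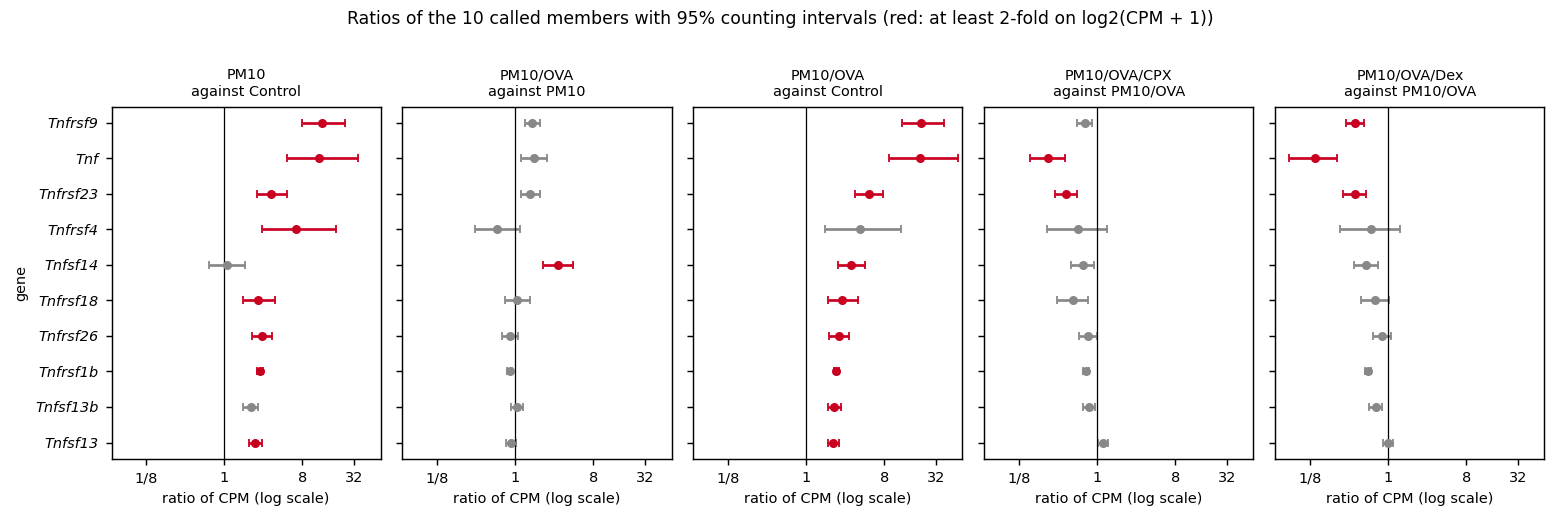
Ratio of CPM for the 10 members at least 2-fold apart in any comparison, with 95% counting intervals on a log axis and red points where the member passed 2-fold on log2(CPM + 1). Tnfrsf9 and Tnf lie farthest to the right against control, at 21.4 and 20.4 in PM10/OVA, and Tnf farthest to the left under both CPX and Dex.

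Among receptors of bone and tissue repair ligands, with Tnfrsf19, Tnfrsf21 and Ngfr, no member was past 2-fold on log2(CPM + 1). Tnfrsf11a (RANK, the receptor of osteoclast precursors and dendritic cells) was at 14.2 CPM in PM10/OVA/CPX, 10.8 in PM10/OVA/Dex, 17.4 in PM10/OVA, 18.2 in PM10 and 9.46 in control, 1.93-fold higher in PM10 than in control (1.57 to 2.37). Its ligand Tnfsf11 had 12, 4, 18, 5 and 5 counts in the same order. Tnfrsf11b (osteoprotegerin, a secreted decoy for RANKL) was lowest under Dex, 1.67-fold below PM10/OVA (1.28 to 2.20). Tnfsf12 (TWEAK) ran from 50.4 to 61.6 CPM and its receptor Tnfrsf12a (Fn14) from 16.0 to 22.5 CPM. Tnfsf12 shares 731 of its 1515 exonic bases with Tnfsfm13, so its level also depends on how reads were assigned. Tnfrsf19 (TROY) was at 36.1 CPM in PM10/OVA/CPX, 45.2 in PM10/OVA/Dex, 35.4 in PM10/OVA, 44.9 in PM10 and 52.2 in control, 1.47-fold lower in PM10/OVA than in control (1.33 to 1.64). Ngfr, the low-affinity neurotrophin receptor, had 12, 20, 43, 13 and 54 counts in the same order, highest in control and PM10/OVA and lowest in PM10/OVA/CPX and PM10. On a ratio of CPM it was 2.89-fold lower in PM10 than in control (1.56 to 5.78) and 2.83-fold lower under CPX than in PM10/OVA (1.47 to 5.90), just short of 2-fold on log2(CPM + 1), where the log2 ratios were -0.99 and -0.92. Tnfrsf21 (death receptor 6) stayed between 44.7 and 54.7 CPM.

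Genes that act downstream of the receptors are given as lists. For comparison, the median log2 ratio of measured members was 0.36 between PM10/OVA and control. Against PM10/OVA it was -0.20 under CPX and -0.25 under Dex. In the list of 16 NF-kB genes and their regulators, 15 had ratios above 0 between PM10/OVA and control (median log2 ratio 0.32) and 3 were at least 2-fold higher, the inhibitor Nfkbie (3.40-fold, 2.86 to 4.06), the non-canonical subunit Nfkb2 (2.13-fold, 1.95 to 2.33) and the feedback inhibitor Tnfaip3 (2.12-fold, 1.92 to 2.34). Under CPX 15 of 16 were below PM10/OVA (median -0.19), 1 of them by 2-fold, Tnfaip3 (2.09-fold lower, 1.87 to 2.34). Under Dex 11 of 16 were (median -0.16), 1 by 2-fold, Nfkbie (2.14-fold lower, 1.81 to 2.53). The 15 death-domain, RIP kinase and caspase genes had a median of 0.22 between PM10/OVA and control and -0.23 between Dex and PM10/OVA. Ripk3, the kinase of necroptosis, was 2.74-fold higher in PM10/OVA than in control (2.15 to 3.50), and it was 2.57-fold lower under Dex than in PM10/OVA (1.96 to 3.41). No TRAF adaptor passed 2-fold in any of the 5 comparisons. Of the 6 shedding genes none did either, and Adam17, the protease that releases TNF from cells, was 1.63-fold higher in PM10/OVA than in control (1.52 to 1.74). Among 8 related genes with other symbols, Edaradd, the adaptor of the ectodysplasin receptor, was 3.86-fold lower in PM10/OVA than in control (1.83 to 9.08) and was the only gene of that list past 2-fold in any comparison. Interferon-response genes were highest in PM10, at a sum of 308 CPM in PM10/OVA/CPX, 186 in PM10/OVA/Dex, 359 in PM10/OVA, 1360 in PM10 and 255 in control. All 8 glucocorticoid-responsive genes had ratios above 0 between Dex and PM10/OVA, 1 of them past 2-fold, with a sum of 1469 CPM in PM10/OVA/Dex and 1047 in PM10/OVA, although PM10 reached 1528. The part of either list in the members' values was not tested.

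**Figure D5:**
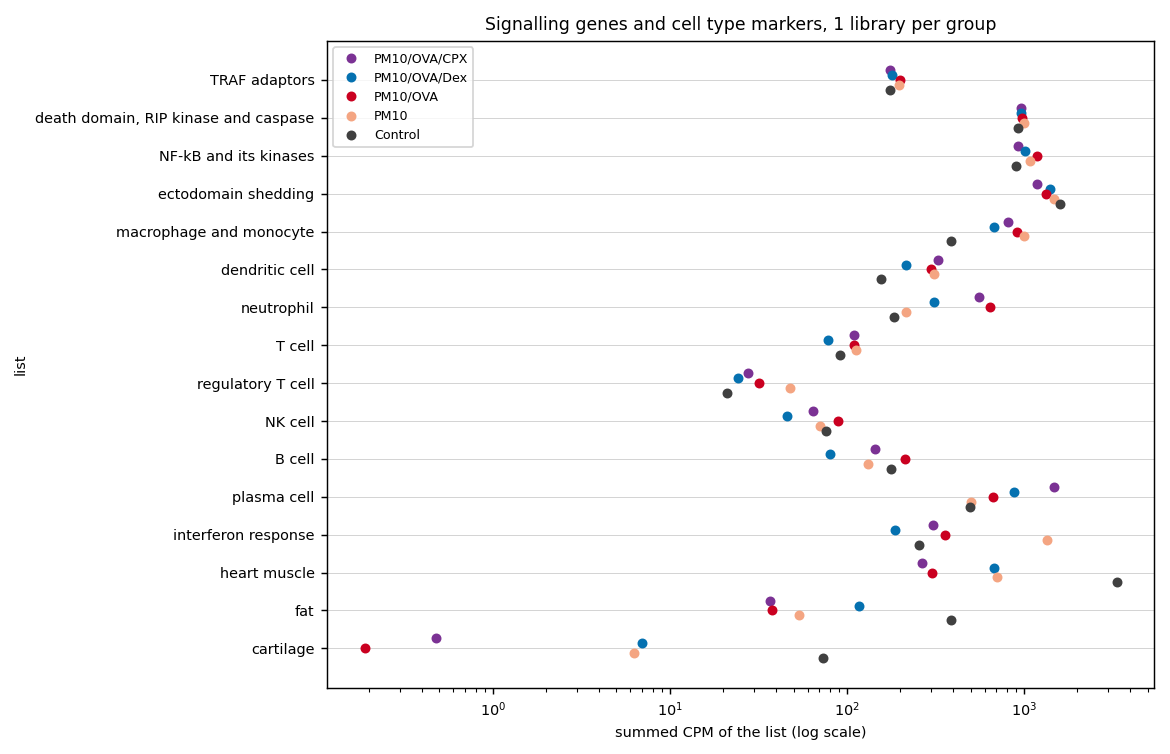
Summed CPM of lists of signalling genes and of cell type markers in each library, 1 point per library on a log axis. The signalling lists lie close together, whereas macrophage and monocyte markers are highest in PM10 at 1008 CPM and lowest in control at 389, and heart-muscle markers are highest in control at 3351.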

How the data were processed

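Per the labels' protocols, whole-lung RNA was extracted with Trizol and sequenced from libraries made with a strand-keeping kit (NEBNext Ultra II Directional). The submitters' processing notes name TopHat and the mm10 build. The counting tool, its annotation and its strand setting are not stated there. The authors deposited raw read counts, whole numbers by gene symbol. Counts were scaled to CPM with TMM factors over the 5 libraries (edgeR 4.0.16, R 4.3.3), and log2 ratios used a pseudocount of 1 CPM, so that differences of low genes are understated. The filter was a mean of at least 1 CPM. Ratios of CPM carry an exact (Clopper-Pearson conditional) 95% interval, which covers counting error only. Its code was run on simulated Poisson counts, the model it assumes, which hold no variation between animals. No p-value was computed, since each group has 1 library. Exonic lengths and positions come from GENCODE M21 (GRCm38), promoter sequences from RefSeq (GRCm38.p6). Alternatives were pseudocounts of 0.25 and 5 CPM, no filter, a mean of at least 5 CPM, library totals alone, and DESeq2 1.42.0 size factors. Members named in full are those at least 2-fold apart in any comparison, the 5 ligands and 5 receptors highest per kilobase and their partners, and the rest are given as ranges. Of each other list, up to 3 genes with the largest log2 ratios are named, with Jchain for plasma cells among them. Tnfsf8, Tnfsf15, Tnfrsf11a, Tnfrsf19, Ngfr and Cd40 were described outside that rule, after their values were seen. The members and lists were chosen with earlier results of these data known.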

Additional observations from a re-analysis of the deposited data

How the results depend on the processing

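Settings were changed singly. Counts of members at least 2-fold apart depended on the pseudocount, and the share of all genes at the same setting stands in brackets. With 5 CPM, 2 members were higher in PM10 than in control (2.13%), 0 in PM10/OVA than in PM10 (0.377%) and 4 in PM10/OVA than in control (1.82%), while 0 were lower under CPX (0.405%) and 1 under Dex (0.706%). With 0.25 CPM, 1 member was lower in PM10 than in control (2.82%) and 3 were higher in PM10/OVA than in PM10 (1.21%). At that setting 11 were higher in PM10/OVA than in control (3.87%) and 3 were lower under CPX (1.27%). A mean of at least 5 CPM left 24 members, with 5 higher in PM10 than in control (3.38%), 0 higher between PM10/OVA and PM10 (0.55%) and 1 lower under CPX (0.634%). With that filter 6 were higher in PM10/OVA than in control (3.03%) and 2 were lower under Dex (1.4%). Library totals alone gave 1 lower in PM10 than in control (2.12%), Ngfr, and ended the calls of Tnfrsf18 in PM10 and of Tnfsf13 and Tnfsf13b in PM10/OVA against control, leaving 7 higher in each (3.56% and 2.95%). DESeq2 size factors ended the call of Tnfsf13 in PM10/OVA, leaving 8 (3.12%). Without a filter each count was as reported. Medians over members stayed within their binomial intervals in all settings, but these are wide and treat the members as independent. For PM10/OVA against control the interval ran from 0.05 to 0.77, and the median log2 ratio went from 0.36 to 0.23 at a pseudocount of 5 CPM. The ratios of the 10 members stayed within their counting intervals under both other scalings. Summing overlapping or neighbouring genes, chosen after seeing the data, moved Tnfsf13 and Tnfrsf23 as given above. No paired analysis was possible because each group has 1 library. Depth limits ligands under 1 CPM, where a few counts set the ratio.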
